A study of Mus musculus with 6 samples.

Results

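Antiviral interferon-stimulated effectors are the proteins that a cell makes in response to interferon to block viral entry, replication and release, and they include ISG15 and the enzymes that conjugate it to other proteins. A list of 42 of these genes was looked up by symbol among the 22401 rows of a table of read counts per gene, and all 42 had a row. The cells were 4T1, a mouse mammary carcinoma line used as a model of triple-negative breast cancer (TNBC). They received either DMSO, the vehicle, or P3FI-90 at 10 µM, a compound described as a selective inhibitor of the histone demethylase KDM3B. Both groups were harvested at 24 h, and each group had 3 mRNA-seq libraries. The design thus rests on 1 cell line, 1 dose and 1 time point. It asks how these effectors differed between P3FI-90-treated and vehicle-treated cells.

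Interferon binds a receptor made of IFNAR1 and IFNAR2, whose kinases activate transcription factors. Together with IRF9 these form a complex that binds the interferon-stimulated response element (ISRE) in the promoters of effector genes. ISG15 is a ubiquitin-like modifier that is attached to proteins by the enzymes UBA7, UBE2L6 and, in mice, HERC6, in a process named ISGylation. Several effectors are also expressed at a low or moderate level without added interferon.

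Each library held between 31327094 and 37395732 counts on rows with a gene name. Of the 12288 genes that passed edgeR's filter on low counts, 4908 had higher and 4841 had lower counts in P3FI-90 libraries at an adjusted p under 0.05. These are 39.9% and 39.4% of the genes tested, or 79.3% in both directions together. Keratins and other epithelial markers were abundant in every library, with sums over 12 markers between 170352 and 179852 normalized counts in DMSO, and Krt5 was at 0 throughout. No library stood apart in the median of its effectors, whose median deviation from their group mean was between -0.03 and 0.01 on the log2 scale. A median does not show single effectors with few counts, which varied more, such as Rsad2 with 4.05, 2.41 and 17.4 normalized counts in DMSO. The labels do not say whether the 3 libraries of a group came from separate cultures, so p-values measure only the spread between these libraries.

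Promoter sequences show where ISRE-like letters lie beside the genes described below, and 8 effectors with a match before the annotated start are considered here. The windows came from the RefSeq table for the GRCm38.p6 build, which held a window of 250 bases before to 50 bases after the start for 34 of the 42 effectors. The ISRE core, which reads GAAA, NN and GAAA in a row with N for any base, was searched on both strands, and matches, including overlapping ones, are in capitals within lower-case flanks. On the strand shown, an opposite-strand match reads TTTC, NN and TTTC. The 7 printed stretches all end before the start, and the Ifit3b stretch, at chr19:34607739-34607842, was identical to that of Ifit3 in 104 of 104 bases and is not repeated.
Ifit1 (chr19:34640755-34640843, plus strand): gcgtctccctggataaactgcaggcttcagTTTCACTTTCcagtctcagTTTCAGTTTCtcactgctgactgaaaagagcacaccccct
Ifit3 (chr19:34583343-34583446, plus strand): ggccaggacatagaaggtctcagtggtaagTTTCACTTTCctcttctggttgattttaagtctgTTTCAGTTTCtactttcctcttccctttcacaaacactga
Isg15 (chr4:156200845-156200926, minus strand): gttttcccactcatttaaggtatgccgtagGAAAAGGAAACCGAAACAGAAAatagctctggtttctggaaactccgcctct
Rsad2 (chr12:26456533-26456602, minus strand): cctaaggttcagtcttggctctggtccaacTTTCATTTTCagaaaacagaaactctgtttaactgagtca
Ddx60 (chr8:61928004-61928086, plus strand): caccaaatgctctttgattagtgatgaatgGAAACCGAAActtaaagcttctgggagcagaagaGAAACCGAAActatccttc
Bst2 (chr8:71537557-71537632, minus strand): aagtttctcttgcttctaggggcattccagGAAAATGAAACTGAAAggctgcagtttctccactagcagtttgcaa
Ifitm2 (chr7:140955968-140956037, minus strand): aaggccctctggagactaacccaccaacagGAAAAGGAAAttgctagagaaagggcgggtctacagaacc

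Among the 34 effectors with a window, 11 (32.4%) held the ISRE core, compared with 3.99% of the 27025 genes that had one. Restricted to the 250 bases before the start, the counts were 8 effectors (23.5%) and 3.46% of genes. The longer form with CT after the second GAAA, whose matches are a subset of the first, occurred in 6 effectors (17.6%) and 0.303% of genes. In contrast, the letters TTCNNNGAA, known as the interferon-gamma-activated site, were found in 8 effectors (23.5%) and 9.55% of genes, and before the start in only 4 effectors (11.8%) and 8.13%. In Bst2, Ifitm3 and Shisa5 an ISRE match overlapped a TTCNNNGAA match. The list was made of interferon-stimulated genes, so a larger share of ISRE letters may follow from that choice and is not a result of treatment. A match describes letters in a window and does not show binding.

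**Figure D1:**
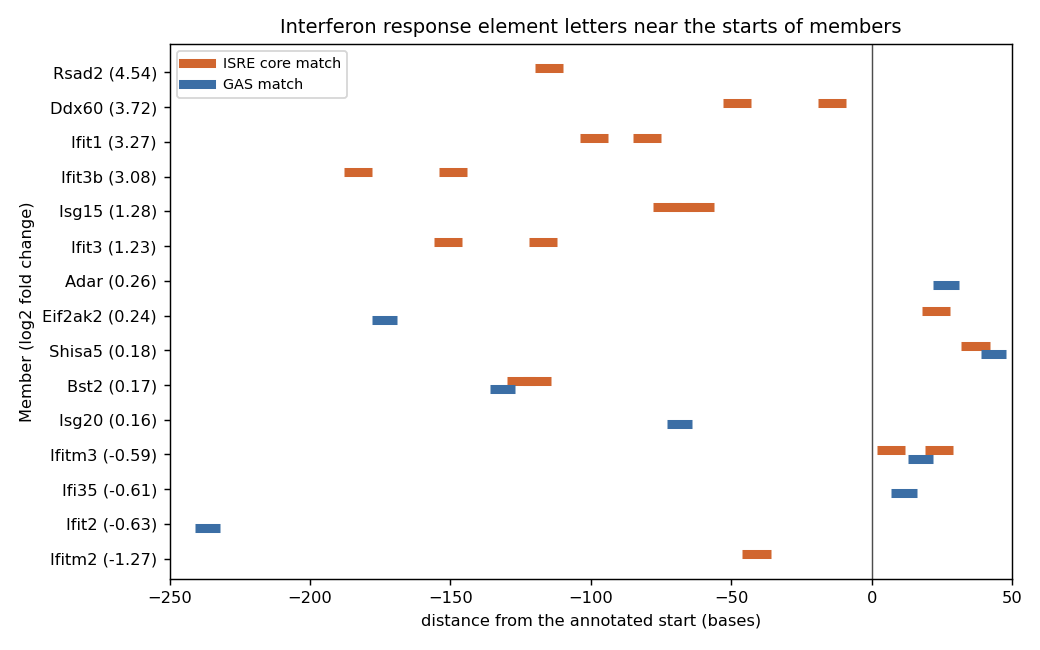
Positions of ISRE core and TTCNNNGAA (GAS) matches relative to the annotated start, in bases, for the effectors with any match, ordered by log2 fold change (in brackets). All 6 effectors that rose by over 1 on the log2 scale and hold an ISRE core match carry it before the start, and so does Ifitm2, which fell.

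Of the 42 effectors, 40 passed the filter on low counts. Among these, 26 rose (65%) and 9 fell at an edgeR adjusted p under 0.05, against 39.9% and 39.4% of all genes tested. The other 5 did neither, as did 20.7% of the genes tested. With a log2 fold change limit of 1 added, 17 rose (42.5%), against 12.7% of all genes tested, and 3 fell, against 10.6%. The median log2 fold change was 0.66 over the 40 effectors and 0.01 over all genes tested. However, 6 effectors (Ifit3b, Mx1, Mx2, Rsad2, Ifi44 and Phf11d) passed the filter through their P3FI-90 counts alone, which favours a rise. Without them, 20 of 34 rose, 11 of them by over 1, and the median was 0.25. When such genes were also removed from the whole table, 38.2% of genes rose, 9.64% rose by over 1, and the median was -0.04. The counts of all 42 effectors in each library lay entirely above DMSO in P3FI-90 libraries for 28 and entirely below for 9, and overlapped for 5. Of the 40 effectors that passed the filter, 26 lay above and 9 below. Among all genes tested, 41.0% lay above and 40.2% below.

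**Figure D2:**
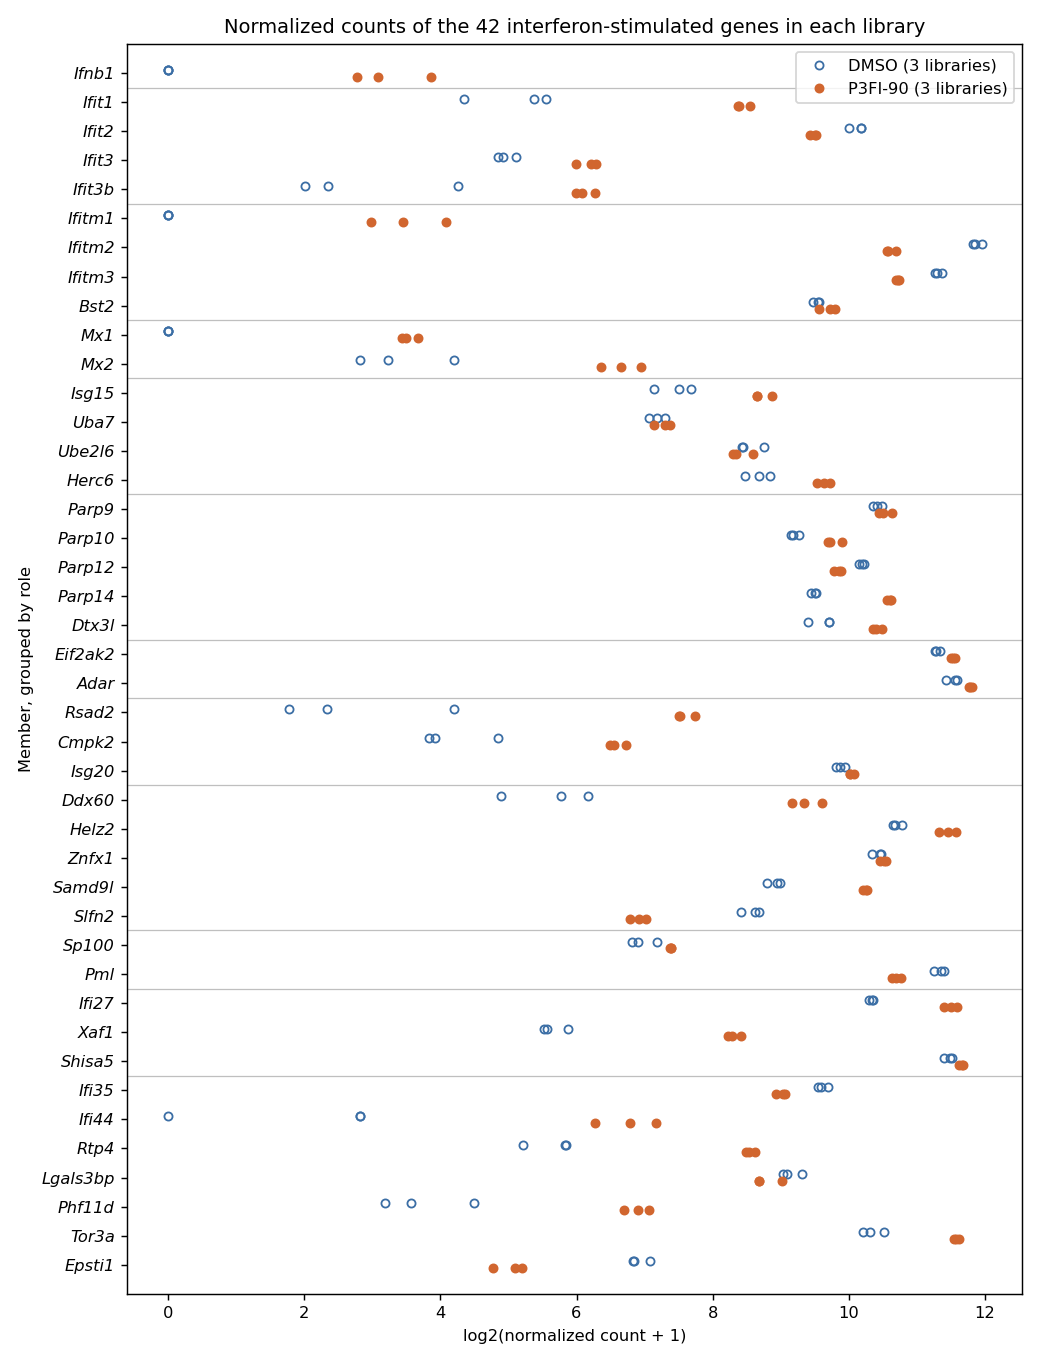
Normalized counts of the 42 effectors in the 3 DMSO and 3 P3FI-90 libraries on a log2(count + 1) axis, grouped by role. The 3 P3FI-90 points lie to the right of all DMSO points for 28 effectors, to the left for 9, and overlap them for 5.

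**Figure D3:**
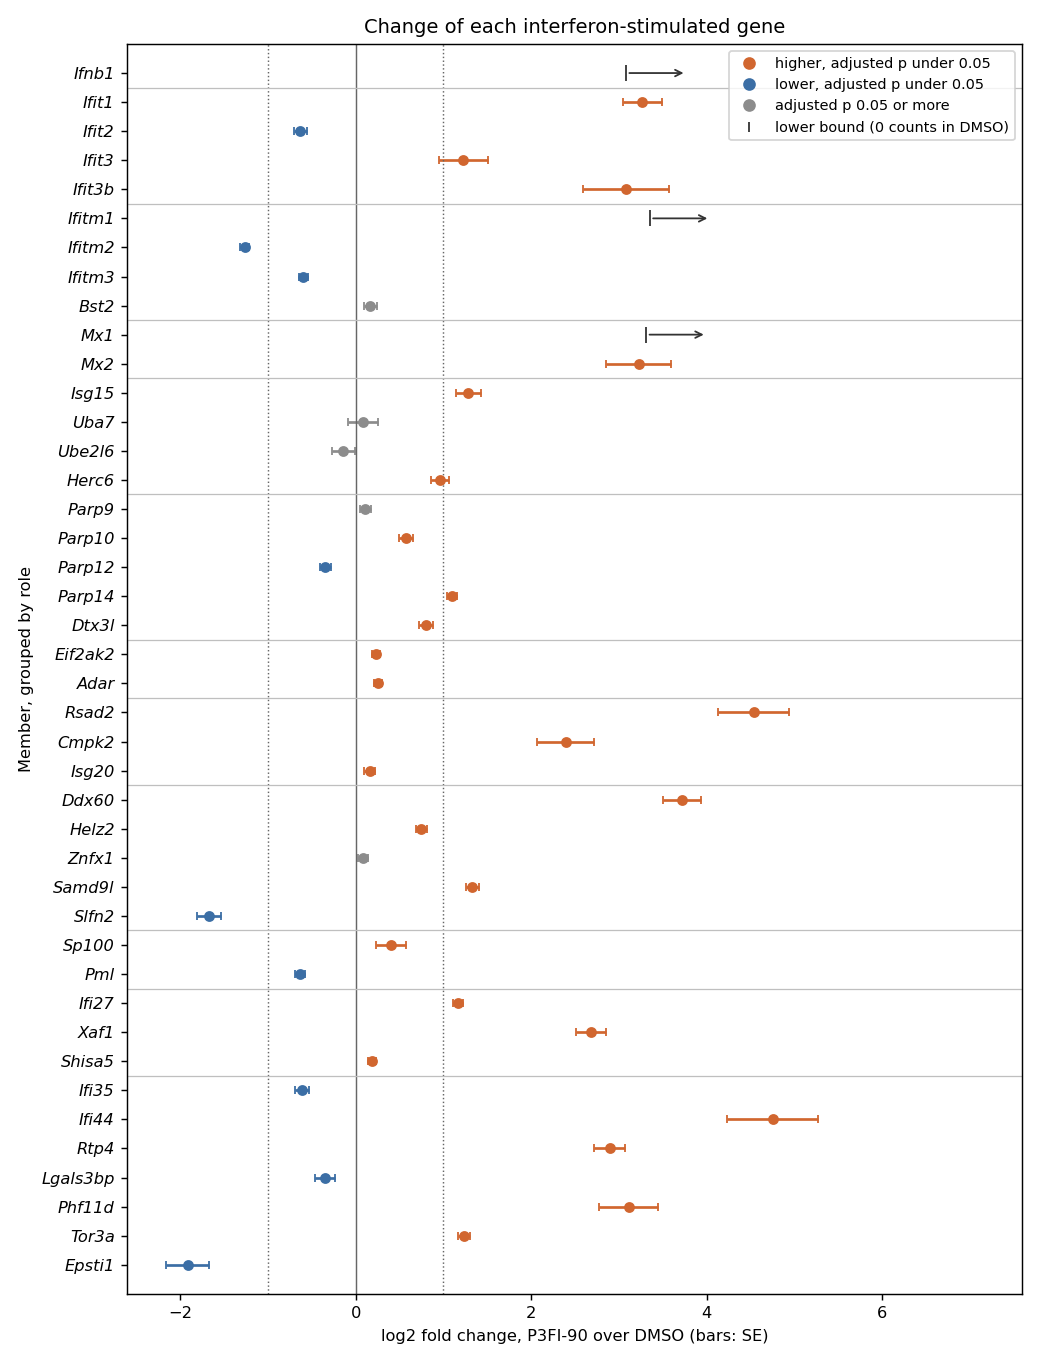
Log2 fold change of each effector (points, with bars for 1 SE of edgeR's fit) and lower bounds for Ifnb1, Ifitm1 and Mx1, which had 0 counts in every DMSO library. Dotted lines mark a log2 fold change of 1 in either direction, beyond which 17 effectors rose (Mx1 among them) and 3 fell.

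The list held a single ligand, Ifnb1, which encodes interferon beta and starts the response through the receptor. Raw counts of Ifnb1 were 0 in all 3 DMSO libraries and 8, 15 and 6 in the P3FI-90 libraries. Every P3FI-90 library thus held a few reads and no DMSO library held any, a count too low for the fitted test. Against a floor of 3 counts over the DMSO group, Ifnb1 was at least 8.45-fold higher. The sources do not say if each read of a pair added its own count, and with a floor of 6 counts the bound was at least 4.23-fold. An exact two-sided permutation test gave p = 0.1, the smallest possible with 3 libraries against 3. Of the 20 other interferon genes in the table, 17 were at 0 in every library and none passed the filter. The 3 with any counts, chosen here for that reason, were Ifnz, with 6 to 14 raw counts and overlapping groups, Ifnl3, with at most 3, and Ifne, with 3 in a single library.

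IFIT proteins bind viral RNA that lacks the cap modifications of host mRNA. Within this family, Ifit1, Ifit3 and Ifit3b rose and Ifit2 fell. Normalized counts of Ifit1 were 40.5, 19.3 and 45.9 in DMSO and 330, 375 and 333 in P3FI-90 libraries. The groups were far apart, and Ifit1 rose 9.65-fold (log2 fold change 3.27, SE 0.23, edgeR adjusted p = 8.15e-09). Ifit2, in contrast, had 1154, 1154 and 1020 normalized counts in DMSO and 725, 690 and 734 in P3FI-90 libraries. All treated libraries lay below all vehicle libraries, with a 1.55-fold fall (log2 fold change -0.63, SE 0.07, edgeR adjusted p = 1.76e-06). Ifit2 was the most abundant IFIT transcript in DMSO, at 282 ± 19.7 (SD, n = 3) normalized counts per kilobase of exon, and after P3FI-90 treatment it stood at 182 ± 5.94, beside 130 ± 9.40 for Ifit1. In DMSO, Ifit1 had stood at 13.3 ± 5.30 per kilobase.

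Ifit3 and its near copy Ifit3b could not be separated cleanly. Ifit3 had 29.4, 27.7 and 33.7 normalized counts in DMSO and 62.7, 77.3 and 73.5 after treatment. Ifit3b had 3.04, 18.1 and 4.08 in DMSO and 62.7, 76.4 and 66.6 after treatment. Both rose, by log2 1.23 (SE 0.28) and 3.08 (SE 0.49), with no overlap between groups. Without the second DMSO library, the highest of its group, the log2 fold change of Ifit3b was 4.22. Ifit3b passed the filter through P3FI-90 alone, so its fit is not independent of that filter. Of all 50-base windows in Ifit3 transcripts, 51.2% also occurred in another gene, and of those in Ifit3b 45.0%, so the split of reads between them is uncertain. Their printed promoter stretches were likewise identical.

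IFITM proteins sit in membranes and hinder the fusion of enveloped viruses, while tetherin, encoded by Bst2, holds new virions at the cell surface. Here the abundant members fell. Normalized counts of Ifitm2 were 3965, 3615 and 3708 in DMSO and 1512, 1655 and 1527 after P3FI-90 treatment. The groups were widely separated, and the fall was 2.40-fold (log2 fold change -1.27, SE 0.05, edgeR adjusted p = 4.45e-11). Ifitm3 had 2525, 2474 and 2641 normalized counts in DMSO and 1663, 1693 and 1704 in treated libraries. This was a 1.51-fold fall without overlap (log2 fold change -0.59, SE 0.05, edgeR adjusted p = 4.80e-08). Of the Ifitm2 transcript windows, 48.5% were shared with other genes, and Gm45717, an annotated gene that covers 40.9% of its exons on the same strand, also fell (log2 fold change -1.76, SE 0.43). For Ifitm3 the share of windows was 10.0%.

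Ifitm1 went the other way from a floor of 0. Its raw counts were 0 in all DMSO libraries and 17, 11 and 7 in P3FI-90 libraries, at least 10.2-fold higher against 3 counts over the group and at least 5.10-fold against 6. The exact two-sided permutation p was 0.1, the smallest this design allows. Bst2 had 745, 754 and 709 normalized counts in DMSO and 843, 752 and 889 after treatment. The second treated library lay within the DMSO range, and the difference did not pass the test (log2 fold change 0.17, 95% interval -0.001 to 0.34, edgeR adjusted p = 0.0631). That call moved with single choices, and without the second P3FI-90 library the log2 fold change of Bst2 was 0.23 (edgeR adjusted p = 0.0199). Bst2 holds an ISRE core match in its printed promoter, as do Ifit1 and Isg15.

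MX proteins are dynamin-like GTPases that trap viral nucleoproteins. Raw counts of Mx1 were 0 in every DMSO library and 11, 13 and 10 in P3FI-90 libraries, at least 9.91-fold higher against a floor of 3 counts over the group and at least 4.95-fold against 6 (edgeR adjusted p = 0.00103). Mx2 had 6.07, 8.43 and 17.4 normalized counts in DMSO and 81.4, 99.8 and 122 in treated libraries. The lowest treated library was far above the highest vehicle library, and Mx2 rose 9.36-fold (log2 fold change 3.23, SE 0.37, edgeR adjusted p = 1.85e-06). Both stayed at the low end of the effectors, at 2.80 ± 0.26 and 28.01 ± 5.69 (SD, n = 3) normalized counts per kilobase after treatment. Both also passed the filter through P3FI-90 alone, so their p-values are not independent of that filter.

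In the ISG15 system, the modifier and its ligase rose, whereas the activating and conjugating enzymes did not pass the test. Isg15 had 180, 204 and 140 normalized counts in DMSO and 402, 467 and 403 in P3FI-90 libraries. It rose 2.44-fold without overlap (log2 fold change 1.28, SE 0.15, edgeR adjusted p = 1.59e-06). Herc6, the ligase that joins ISG15 to its targets in mice, had 355, 457 and 410 normalized counts in DMSO and 737, 795 and 845 after treatment. Herc6 rose 1.95-fold, again with separate groups (log2 fold change 0.96, SE 0.10, edgeR adjusted p = 6.47e-07), and 12.5% of its transcript windows were shared with other genes.

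Uba7, the enzyme that activates ISG15, had 156, 133 and 145 normalized counts in DMSO and 165, 139 and 157 in P3FI-90 libraries. The groups overlapped, with a log2 fold change of 0.09 (95% interval -0.27 to 0.45, edgeR adjusted p = 0.643). Ube2l6, the conjugating enzyme, had 429, 344 and 347 in DMSO and 384, 313 and 322 after treatment. These values also overlapped (log2 fold change -0.14, 95% interval -0.41 to 0.13, edgeR adjusted p = 0.326), and with libraries scaled by total counts alone the sign turned (0.08). For both enzymes, changes of a size within these intervals remain possible. The protease USP18 removes ISG15 from proteins and also restrains the interferon receptor. Usp18 is not one of the 42 effectors, and its normalized counts were 16.2, 22.9 and 13.3 in DMSO and 190, 150 and 166 in P3FI-90 libraries. It rose 9.71-fold (log2 fold change 3.28, SE 0.27, edgeR adjusted p = 4.19e-08). Per kilobase of exon, Isg15 stood at 231 ± 42.6 (SD, n = 3) in DMSO and 561 ± 49.0 after treatment, where Uba7 stood at 21.6 ± 1.74 and 22.9 ± 1.93.

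**Figure D4:**
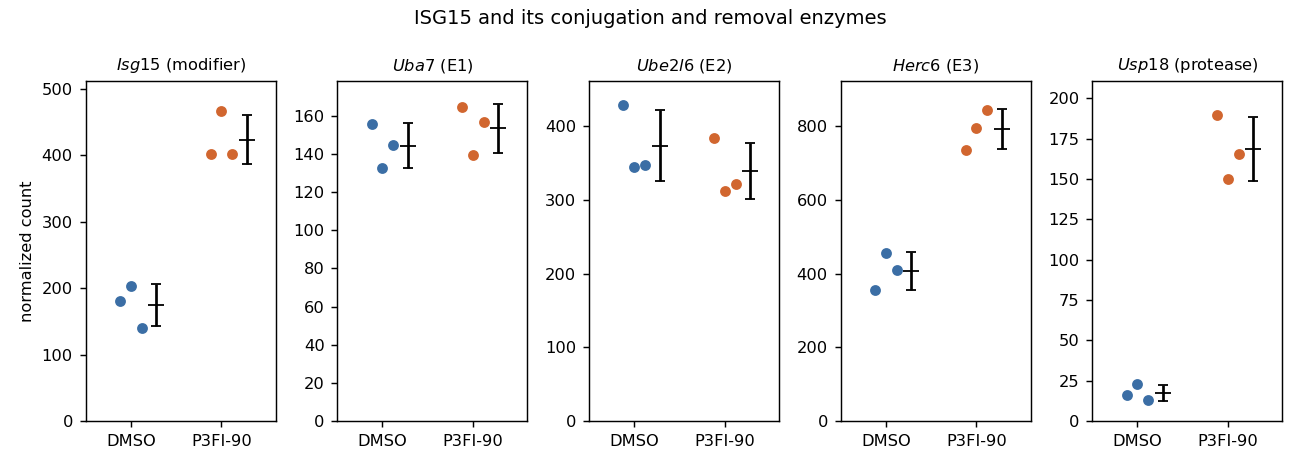
Normalized counts of Isg15, its activating (E1), conjugating (E2) and ligating (E3) enzymes and the removing protease Usp18 in each library, with the mean and SD of 3 libraries beside the points and every axis starting at 0. Isg15, Herc6 and Usp18 were higher in every P3FI-90 library, and the groups overlapped for Uba7 and Ube2l6.

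Several effectors attach ADP-ribose to proteins or work with such enzymes. PARP14 and PARP10 transfer single ADP-ribose units, and PARP9 pairs with the ubiquitin ligase DTX3L. Parp14 had 696, 725 and 736 normalized counts in DMSO and 1554, 1509 and 1567 in P3FI-90 libraries. It rose 2.15-fold with little spread inside either group (log2 fold change 1.10, SE 0.06, edgeR adjusted p = 4.96e-10). Dtx3l rose by log2 0.80 (SE 0.08), from 675 to 836 normalized counts in DMSO to 1314 to 1432 after treatment, and Parp10 by 0.57 (SE 0.08), from 566 to 614 to 824 to 951. Of the Parp10 exons, 4.80% overlap Plec on the same strand, whose log2 fold change was -1.01.

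The partner of Dtx3l did not follow it past the threshold. Normalized counts of Parp9 were 1315, 1437 and 1359 in DMSO and 1390, 1592 and 1453 in treated libraries. The lowest treated value lay inside the DMSO range (log2 fold change 0.11, 95% interval -0.03 to 0.25, edgeR adjusted p = 0.121). Parp9 and Dtx3l lie next to each other on chromosome 16 and share 458 bases of exon on opposite strands, and strandedness of the counting is not given. Parp12, another mono-ADP-ribosyltransferase, fell from 1166, 1194 and 1137 normalized counts to 943, 926 and 883. This fall was small but without overlap (log2 fold change -0.34, SE 0.06, edgeR adjusted p = 0.00014). When libraries were scaled by total counts alone, Parp12 no longer passed (-0.13, edgeR adjusted p = 0.0648).

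The double-stranded RNA kinase PKR, encoded by Eif2ak2, stops translation during infection, and ADAR edits double-stranded RNA so that it is not sensed. Eif2ak2 had 2452, 2604 and 2477 normalized counts in DMSO and 2909, 2946 and 3016 in P3FI-90 libraries. Adar had 3030, 2750 and 3066 in DMSO and 3526, 3467 and 3587 after treatment. Both were already abundant and rose by small amounts without overlap, with log2 fold changes of 0.24 (SE 0.05, edgeR adjusted p = 0.000302) and 0.26 (SE 0.05, edgeR adjusted p = 0.000234). Chrnb2 overlaps 16.8% of the Adar exons on the opposite strand and had a log2 fold change of 0.60.

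Among effectors that act on nucleotides and nucleic acids, Rsad2 encodes viperin, which makes a chain-terminating nucleotide, and Cmpk2 is a mitochondrial nucleotide kinase. Normalized counts of Rsad2 were 4.05, 2.41 and 17.4 in DMSO and 182, 181 and 214 in P3FI-90 libraries. From this low start, in which the third DMSO library was the highest, Rsad2 rose 23.2-fold (log2 fold change 4.54, SE 0.40, edgeR adjusted p = 1.11e-07). Without that library the log2 fold change of Rsad2 was 5.81. Rsad2 passed the filter through P3FI-90 alone, so its p-value is not independent of that filter. Cmpk2, its neighbour on chromosome 12, had 14.2, 27.7 and 13.3 in DMSO and 88.9, 92.6 and 105 after treatment. It rose 5.25-fold without overlap (log2 fold change 2.39, SE 0.32, edgeR adjusted p = 8.77e-06). The exonuclease gene Isg20 was far more abundant and close to the threshold, with 982, 898 and 933 normalized counts in DMSO and 1036, 1074 and 1036 after treatment. Its log2 fold change was 0.16 (SE 0.06, edgeR adjusted p = 0.0318), and in 8 of 15 alternatives, 5 of them with a library left out, the adjusted p of Isg20 exceeded the threshold. It was between 0.0549 and 0.114 without DMSO library 2, without DMSO library 3 or without any 1 of the P3FI-90 libraries.

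Helicase-like and SAMD9 or Schlafen proteins sense or restrict foreign RNA and its translation. Ddx60, which has ISRE core matches in its printed promoter, had 53.6, 71.1 and 28.6 normalized counts in DMSO and 647, 574 and 780 in P3FI-90 libraries. It rose 13.2-fold, with every treated library far above every vehicle library (log2 fold change 3.72, SE 0.22, edgeR adjusted p = 1.28e-09). Samd9l, which restricts translation, rose from 445, 494 and 509 to 1236, 1188 and 1221, a log2 fold change of 1.33 (SE 0.07). Helz2, a helicase-domain coactivator, rose by 0.75 (SE 0.06), from between 1607 and 1757 to between 2577 and 3040 normalized counts. Znfx1, a sensor of viral RNA, overlapped between groups, with 1420, 1405 and 1301 in DMSO and 1409, 1501 and 1470 after treatment (log2 fold change 0.09, 95% interval -0.04 to 0.21, edgeR adjusted p = 0.176).

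Slfn2, a Schlafen gene known for keeping T cells quiescent, fell. Its normalized counts were 409, 341 and 392 in DMSO and 129, 110 and 120 in P3FI-90 libraries. The 3.18-fold fall left no overlap (log2 fold change -1.67, SE 0.14, edgeR adjusted p = 6.09e-08). Of the other Schlafen genes listed, Slfn3, Slfn8 and Slfn9 passed the filter and also fell, by 0.47, 0.63 and 0.32 on the log2 scale.

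SP100 and PML are scaffold proteins of the same nuclear bodies, yet their transcripts differed in direction. Pml had 2689, 2428 and 2612 normalized counts in DMSO and 1596, 1651 and 1741 after treatment. It fell 1.55-fold with separate groups (log2 fold change -0.63, SE 0.06, edgeR adjusted p = 1.01e-07). Sp100 had 118, 112 and 144 in DMSO and 167, 166 and 165 in treated libraries, a log2 fold change of 0.41 (SE 0.17, edgeR adjusted p = 0.0418). The adjusted p of Sp100 exceeded 0.05 in 7 of 15 alternatives. It was between 0.0731 and 0.117 without DMSO library 1, without DMSO library 2 or without any 1 of the P3FI-90 libraries.

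Of the effectors tied to mitochondria and cell death, Ifi27, Xaf1 and Shisa5 all rose. Ifi27 encodes a membrane protein of mitochondria and the nuclear envelope, and had 1254, 1313 and 1302 normalized counts in DMSO and 2897, 2697 and 3096 in P3FI-90 libraries. It rose 2.25-fold without overlap (log2 fold change 1.17, SE 0.06, edgeR adjusted p = 2.12e-10). Xaf1, whose product opposes the apoptosis inhibitor XIAP, had 46.5, 57.8 and 44.9 in DMSO and 342, 312 and 300 after treatment. This was a 6.40-fold rise (log2 fold change 2.68, SE 0.17, edgeR adjusted p = 3.12e-09). Shisa5, an endoplasmic reticulum protein of the p53 response, changed little, from between 2709 and 2921 to between 3148 and 3278 (log2 fold change 0.18, SE 0.05).

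The last 7 effectors have less defined roles. Ifi44 had 6.07, 6.02 and 0 normalized counts in DMSO and 109, 142 and 76.4 in treated libraries. It rose 26.9-fold (log2 fold change 4.75, SE 0.51, edgeR adjusted p = 9.74e-07). Without the DMSO library at 0, the log2 fold change of Ifi44 was 4.15. Ifi44, like Phf11d below, passed the filter through P3FI-90 alone, so its p-value is not independent of that filter. Rtp4, a receptor transporter with antiviral activity, rose 7.44-fold, from 56.7, 36.1 and 56.1 to 394, 369 and 358. Phf11d rose 8.66-fold, from 8.10, 10.8 and 21.4 to 103, 133 and 119, and 8.09% of its transcript windows were shared, mostly with Phf11c, which also rose (log2 fold change 2.52, SE 0.23). Tor3a, an interferon-induced torsin of the endoplasmic reticulum, rose 2.35-fold, from between 1181 and 1464 to between 3000 and 3153.

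Ifi35, Lgals3bp and Epsti1 fell. Normalized counts of Epsti1, first described in epithelial and stromal cells grown together, were 114, 134 and 112 in DMSO and 35.6, 33.3 and 26.5 after treatment. At 3.76-fold this was the largest fall among the effectors (log2 fold change -1.91, SE 0.25, edgeR adjusted p = 5.90e-06). Ifi35 had 828, 749 and 772 in DMSO and 524, 487 and 533 in P3FI-90 libraries (log2 fold change -0.61, SE 0.08, edgeR adjusted p = 8.12e-06). Lgals3bp, a secreted galectin-binding glycoprotein, had 634, 523 and 543 in DMSO and 411, 517 and 407 after treatment. Its groups nearly touched at 523 and 517 (log2 fold change -0.35, SE 0.11, edgeR adjusted p = 0.0125). Without the first DMSO library the log2 fold change of Lgals3bp was -0.26 (edgeR adjusted p = 0.0695), and with total counts alone -0.13 (edgeR adjusted p = 0.292).

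Levels of different genes were compared as normalized counts per kilobase of exon. In DMSO, Ifitm2 stood highest at 5745 ± 277 (SD, n = 3) and Ifitm3 next at 3756 ± 126, which made up 33.1% and 21.7% of the sum over the 42 effectors. After P3FI-90 treatment their levels were 2389 ± 120 and 2488 ± 31.3, which differed by less than the spread of Ifitm2, and their shares were 15.4% and 16.1%. Ifi27 was the next in both groups, at 879 ± 21.4 in DMSO and 1975 ± 136 after treatment, and its share rose from 5.07% to 12.8%. Shisa5 and Bst2 followed, at 860 ± 34.0 and 815 ± 26.1 in DMSO, where Ifi27 and Shisa5 differed by less than their spread. Treated libraries had Shisa5 at 977 ± 20.3 and Bst2 at 917 ± 77.2, less than 1 SD of Bst2 apart.

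The sum of levels over the 42 effectors was lower after treatment with TMM scaling, and the groups overlapped with libraries scaled by total counts alone. With TMM it was 17750, 17010 and 17260 normalized counts per kilobase in DMSO and 15230, 15470 and 15700 in P3FI-90 libraries. Without Ifitm2 and Ifitm3, the sum over the other 40 was 7969, 7841 and 7705 in DMSO and 10470, 10440 and 10860 after treatment. With total counts alone, the sum over all 42 was 15780 to 16410 in DMSO and 16360 to 16890 after treatment, and that over the 40 was 7143 to 7369 and 11210 to 11680. The sum over the 40 was higher in every treated library on both scales. Leaving out Ifitm2 and Ifitm3, which were the most abundant and both fell, favours that direction.

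The size of the rises was set beside the level of each effector. Of the 14 with the lowest mean level over the 6 libraries, 10 rose, 9 of them by over 1 on the log2 scale, 1 fell, 1 did neither and 2 were below the filter. However, 6 of these 9 passed the filter through P3FI-90 alone, and without them 3 rose by over 1. Of the 14 with a middle level, 5 rose by over 1, and of the 14 with the highest level, 3 did. Across the 40 effectors tested, the Spearman correlation of level per kilobase with log2 fold change was -0.56, and Pearson's r on log2 levels was -0.68. Without the 6, the values over 34 effectors were -0.33 and -0.40. Across all 12263 genes tested with a known length, they were -0.22 and -0.29. These are descriptions across genes of the same 6 libraries, and the level includes the treated libraries.

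**Figure D5:**
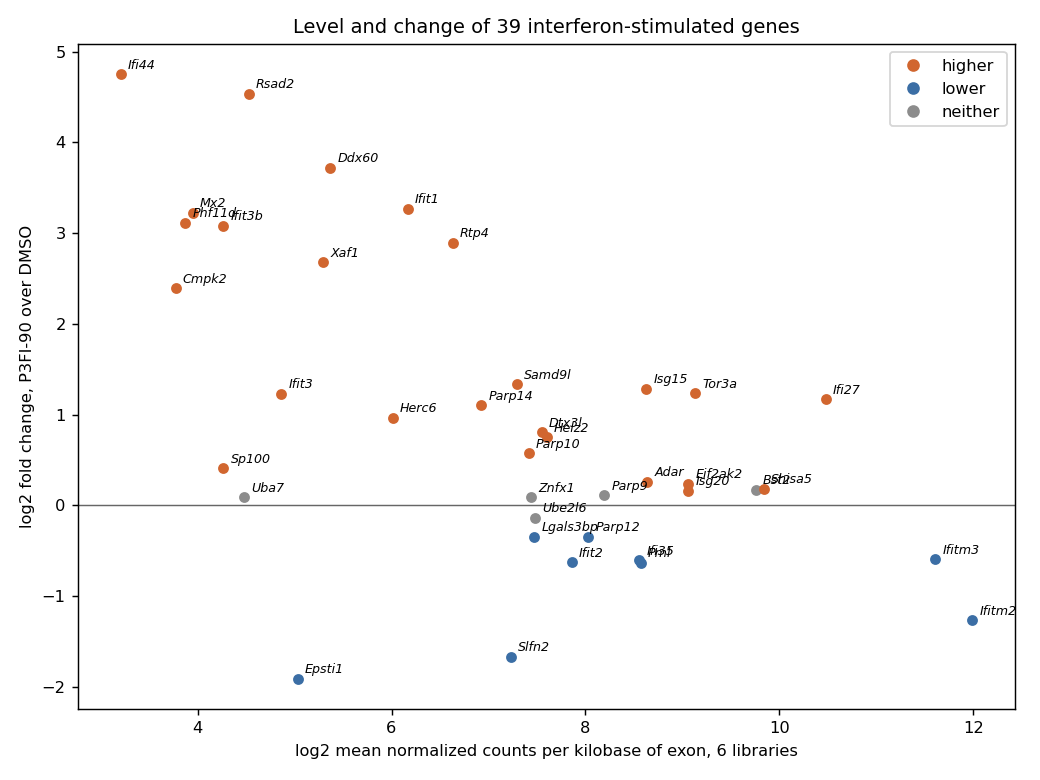
Mean level of 39 effectors (log2 normalized counts per kilobase of exon over 6 libraries) against log2 fold change. Ifi44 and Rsad2, which passed the filter through P3FI-90 alone, lie at the top left, and Ifitm2 and Ifitm3, the most abundant effectors, lie below 0 at the right.

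ISRE letters occurred among effectors in each direction. The core was present in 6 of the 11 effectors with a window that rose by over 1 (54.5%), where 5.38% of all genes that rose by over 1 had it. Of the 9 effectors that fell by any amount, 2 held it (Ifitm2 and Ifitm3). Among all genes that fell by over 1, a stricter limit that Ifitm3 did not meet, 2.81% held it. Ifit3 and Ifit3b, which share their promoter stretch, both count among the 6. Ifit3b and Rsad2 among the 6 passed the filter through P3FI-90 alone, as did Ifi44 and Phf11d among the 11. These shares describe a list chosen as interferon-stimulated genes. The letters TTCNNNGAA were found in 0 of the 11 effectors that rose by over 1, where 9.47% of all genes that rose by over 1 had them. With only 11 effectors, these 2 shares cannot be told apart. No window was at hand for 8 effectors (Mx1, Mx2, Parp9, Parp10, Parp14, Ifi27, Rtp4 and Tor3a), and 6 of the 17 effectors that rose by over 1 are therefore not covered.

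Neighbouring effectors did not always share a direction. Rsad2 and Cmpk2 on chromosome 12 both rose. On chromosome 16, Parp14 and Dtx3l rose, and Parp9 beside them had a log2 fold change of 0.11. Ifit2 fell next to Ifit3, which rose, on chromosome 19. Ifitm1, with counts only in treated libraries, lies between Ifitm2 and Ifitm3 on chromosome 7, and both of these fell.

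The interferon signalling chain, from receptors and sensors to transcription factors, had 22 genes tested, of which 10 rose and 9 fell, with a median log2 fold change of 0.11. These shares are near the 39.9% of all genes tested that rose and the 39.4% that fell. Stat2 and Irf9, which encode subunits of the ISRE-binding complex, rose, with log2 fold changes of 0.91 (SE 0.07) and 1.03 (SE 0.08). Irf7, which amplifies interferon production, rose by 2.56 (SE 0.20). Of the receptor genes, Ifnar2 fell by 0.39 (SE 0.05), and Ifnar1 had a log2 fold change of 0.07 (edgeR adjusted p = 0.144). The phosphatase gene Ptpn6, which dampens this signalling, fell by 1.28 (SE 0.07). Besides these, the RNA sensor gene Rigi rose by 1.93 (SE 0.06) and Irf3 fell by 1.27 (SE 0.07).

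Related effector families were counted from lists written by hand, with earlier results of these data known. A gene was taken out of the oligoadenylate synthetase list after its values were seen, so the shares of that list depend on this choice. Of 8 oligoadenylate synthetase genes tested, 7 rose, all by over 1, and the median log2 fold change was 1.92. Oas2 had the largest, at 4.01 (SE 0.41), from raw counts of 8, 2 and 4 in DMSO to 77, 91 and 95 after treatment. It passed the filter through P3FI-90 alone, so its fit is not independent of that filter. Oas1c had -0.11 (edgeR adjusted p = 0.633). Of 17 guanylate-binding proteins and immunity-related GTPases tested, 14 rose, 12 by over 1, and none fell, with a median of 1.30. The remaining 3 were Gbp2 (-0.12), Gbp2b (-0.02) and Ifi47 (0.33). By comparison, among 36 tested relatives of the effectors from the same gene families, 22 rose, 5 by over 1, and 11 fell, with a median of 0.28. Rises made up 87.5%, 82.4% and 61.1% of these lists in turn, against 39.9% of all genes tested. Rises by over 1 made up 87.5%, 70.6% and 13.9%, against 12.7%. However, Gbp5, Gbp6, Gbp8, Gbp10, Oas2 and the relative Ifit1bl2 passed the filter through their P3FI-90 counts alone, which favours a rise. All of these count as rises by over 1, and the shares of the lists include them. The shares of all genes tested also include such genes. Of all genes tested, 39.4% fell. Many genes in the first 2 lists have near-identical copies, so their values are uncertain.

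Markers of cell types moved between the groups as well. All 11 epithelial markers tested fell, 6 by over 1 on the log2 scale, and their summed normalized counts were 74272 to 77898 in P3FI-90 libraries. Of all genes tested, 39.4% fell, and 10.6% fell by over 1. Of 18 leukocyte markers, 10 had 0 counts in every library, Cd3d, Cd4 and Cd8a among them. Their sum was 30.6 to 94.1 normalized counts in DMSO and 161 to 187 after treatment. Raw counts of Csf1r were 34, 52 and 27 in DMSO and 114, 147 and 128 after treatment, and those of the leukocyte-defining gene Ptprc were 23, 0 and 3 against 26, 6 and 10. The sum over 11 fibroblast and endothelial markers was 1425 to 1491 in DMSO and 1035 to 1128 after treatment. Pdgfra held most of that sum and fell by 0.50 on the log2 scale, and Col1a1 had -0.28 (edgeR adjusted p = 0.324). Pecam1, with raw counts of 0, 0 and 13 in DMSO and 20, 17 and 27 after treatment, rose by 2.10 (edgeR adjusted p = 0.0355). It passed the filter through P3FI-90 alone, so its p-value is not independent of that filter. The part of these shifts in the effector results was not tested, and in bulk RNA a different number of cells and a different amount of RNA per cell cannot be told apart.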

How the data were processed

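The authors deposited a table of read counts per gene, as whole numbers without normalization, for 3 DMSO and 3 P3FI-90 libraries made from total RNA with an Illumina mRNA-seq kit. The submitters' processing notes name CASAVA, HISAT2 and StringTie and the GRCm39 build, without versions or roles, and the counting tool and strandedness are not given in the sources used here. A further 285 rows without a gene name (0.483% to 0.556% of counts) were left out. Under R 4.3.3, edgeR 4.0.16 was used to drop low genes (filterByExpr), to scale by TMM and to compare the groups with its quasi-likelihood test, with Benjamini-Hochberg adjustment over 12288 genes. The script was tested on simulated data. Normalized counts were obtained by bringing each library to the average TMM-adjusted library size, and the SE is the log2 fold change divided by the square root of its F statistic. TMM factors were 0.927 to 0.929 for DMSO and 1.08 for P3FI-90. Counting noise is small at these depths for abundant genes but not for effectors with few counts, and bounds against 0 cover counting error only. Exon lengths and 50-base transcript windows came from GENCODE M21 and promoters from RefSeq, both on GRCm38, so counts were joined by gene name or identifier only. Levels were expressed per kilobase without a further scaling of the library total. No pairing was used, as deviations of equally numbered libraries correlated by -0.021, 0.015 and 0.0049. Alternatives were other scalings and filters, halved counts, DESeq2 1.42.0, limma-voom (limma 3.58.1), a replicate block and each library left out. All 42 effectors are accounted for, with values per library for the largest, smallest and opposite changes of each role group. The 42 effectors and the other gene lists were chosen with earlier results of these data known. Some listed genes are not reported here, and 1 of them was taken out of the oligoadenylate synthetase list after its values were seen.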

Additional observations from a re-analysis of the deposited data

How the results depend on the processing

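Of the 35 effectors that rose or fell, 31 kept their direction and call in every alternative that gave them a value. For 25 this was all 15 alternatives, and for the 6 that passed the filter through P3FI-90 alone it was 13 or 14, since the filter of 10 counts in every library removed them and halved counts also removed Mx1. The exceptions were Isg20, Sp100, Lgals3bp and Parp12. Scaling by total counts alone moved the median of all genes from 0.01 to 0.23 on the log2 scale and that of the effectors to 0.88. On that scaling 29 effectors rose and 7 fell, with 6179 higher and 3641 lower genes in the table. Within that shift of the whole table, Bst2 (0.38), Parp9 (0.33) and Znfx1 (0.30) also passed the threshold, and Ube2l6 turned from -0.14 to 0.076 (edgeR adjusted p = 0.592). Requiring at least 10 counts in every library left 34 effectors, of which 11 rose by over 1, with a median of 0.27. This filter removes effectors that were near 0 in DMSO. When a single library was left out, the median of the effectors was between 0.67 and 0.78, 24 to 26 rose, 8 to 9 fell and 17 to 19 rose by over 1. With the replicate number as a block, which the data do not show to pair the libraries, Sp100 (0.42, edgeR adjusted p = 0.0601) and Isg20 (0.16, edgeR adjusted p = 0.0513) lost their calls, and no other effector did. Other limits are the single cell line, dose and time, libraries not stated to be separate cultures, and reads that copies of a gene may share.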
